A study of Mus musculus with 12 samples.

Results

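The 9 genes described here encode receptors, and 1 receptor ligand, that set how readily a macrophage responds or engulfs: the Siglecs Siglec1, Siglece and Cd33, the pair Sirpa and Cd47, and the receptors Pirb, Pilra, Cd300a and Cd300lf. They were chosen by symbol, as the entries of the expression table that hold a listed name, and 9 of 46729 entries in all matched, each a single-gene entry. The RNA came from macrophages that were grown from bone marrow of C57BL6 mice over 10 days. The culture medium held interleukin-3 and supernatant of L-929 fibroblasts, which secrete the macrophage growth factor CSF-1. All groups share that culture. They differ in the interferon gamma (IFNγ) in the fresh medium: none, 0.2, 2 or 20 U/ml for 8 h, with 3 libraries per group. The label of the highest dose gives 20 U with no volume and is taken here to mean U/ml. Nothing in the labels says whether the libraries came from separate mice or cultures.

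IFNγ is the cytokine by which T cells and natural killer cells activate macrophages, and its receptor signals through JAK kinases. Siglecs are lectins that bind sialic acid, the sugar that caps many glycans of the body's own cells. Most receptors of this group carry a tyrosine motif in the cytoplasmic tail, the immunoreceptor tyrosine-based inhibitory motif (ITIM), which is phosphorylated by Src family kinases and then recruits the phosphatases SHP-1, SHP-2 or SHIP-1. SIRPα, the product of Sirpa, is such a receptor, and its ligand CD47, present on nearly all cells, is known as a signal against engulfment. Siglec1 (CD169, sialoadhesin) has no such motif and acts in adhesion and capture of sialylated particles.

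The table holds 1 FPKM value per entry and group (fragments per kilobase of transcript, scaled to library size), so no difference below has a replicate check, and no standard deviation, standard error or p-value can be given for it. No source used here tells whether a value combines the 3 libraries of its group, and the depth is unknown. Ratios are differences of log2(FPKM + 1), which understate differences of low genes. Entries with a log2 ratio of 1 or more in either direction, a 2-fold difference, were called higher or lower. Of the 9 genes, 8 reached the filter of a mean of 1 FPKM over the 4 groups; Siglece, at a mean of 0.979, did not, and is given by value only. All 7 macrophage markers had an entry above 1 FPKM in every group, among them Csf1r at 340 to 418 FPKM and Adgre1 at 137 to 189. Of 30 markers of other blood, stromal and endothelial cells, 28 were under 1 FPKM in every group, and their summed level was 3.13, 5.06, 4.44 and 4.68 FPKM from untreated to the highest dose. In bulk RNA, fewer cells of a type and less RNA per cell cannot be told apart.

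The stretch before the transcription start is shown for the members that differed most and have a sequence in the reference, because many genes that respond to interferons carry short response elements there. RefSeq promoter sequences (build GRCm38.p6) matched 7 of the 9 members; Siglec1 and Sirpa were not matched. The 250 bases before each start were searched on both strands for the GAS element TTCNNNGAA and for the core of the ISRE element, 2 copies of GAAA with 2 bases between them. Of 32851 promoter stretches of the same length, 7.02% held the GAS letters and 2.98% the ISRE letters. No GAS match lay in the 7 members, and Pilra alone had an ISRE match, at -178 to -169 relative to its start, in capitals below. A match is a description of letters and not of binding, and a missing match says only that the letters are not in this window. The windows of Cd47 and Cd33 lie inside their annotated gene spans, whose outer ends are farther upstream. The stretches before those outer ends were not searched. Each line runs 5′ to 3′ on the strand of its gene: Cd300lf from chr11:115133993-115134242 (minus strand), Cd33 from chr7:43533172-43533421 (minus), Cd47 from chr16:49855404-49855653 (plus) and Pilra from chr5:137836279-137836528 (minus).
Cd300lf: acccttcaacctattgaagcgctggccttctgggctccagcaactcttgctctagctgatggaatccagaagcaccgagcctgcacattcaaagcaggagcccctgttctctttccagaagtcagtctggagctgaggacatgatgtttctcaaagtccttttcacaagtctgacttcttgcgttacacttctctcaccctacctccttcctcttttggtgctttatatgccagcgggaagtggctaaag
Cd33: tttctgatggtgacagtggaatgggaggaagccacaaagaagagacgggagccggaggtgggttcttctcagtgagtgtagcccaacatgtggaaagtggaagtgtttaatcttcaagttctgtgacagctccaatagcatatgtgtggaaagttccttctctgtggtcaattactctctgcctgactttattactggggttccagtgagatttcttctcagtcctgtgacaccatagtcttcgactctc
Cd47: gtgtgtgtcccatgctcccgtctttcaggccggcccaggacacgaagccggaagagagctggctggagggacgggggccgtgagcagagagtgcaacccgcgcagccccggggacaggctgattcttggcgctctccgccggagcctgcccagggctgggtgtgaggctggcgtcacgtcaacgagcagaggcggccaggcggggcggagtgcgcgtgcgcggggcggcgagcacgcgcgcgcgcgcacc
Pilra: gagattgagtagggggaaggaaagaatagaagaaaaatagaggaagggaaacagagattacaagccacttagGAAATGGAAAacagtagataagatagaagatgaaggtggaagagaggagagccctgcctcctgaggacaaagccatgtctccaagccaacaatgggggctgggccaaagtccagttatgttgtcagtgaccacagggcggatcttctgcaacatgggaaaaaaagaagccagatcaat

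Base composition set Cd47 apart from the others. Its stretch was 73.2% G or C with 30 CG dinucleotides, against a median of 52.4% and 6 over all promoters. The stretches of Cd300lf, Cd33, Pilra, Pirb, Cd300a and Siglece held between 1 and 4 CG dinucleotides and 46.0% to 55.2% G or C. Cd47 also has a second RefSeq start close by, whose stretch held 31 CG dinucleotides.

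**Figure D1:**
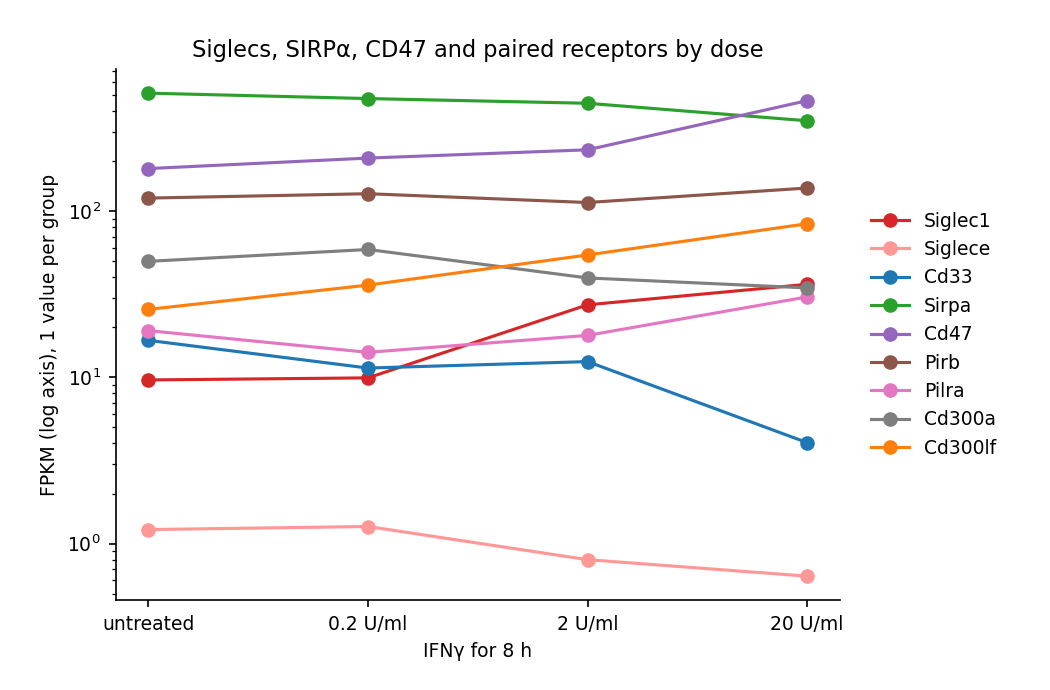
FPKM of the 9 genes (log axis) in untreated macrophages and after 8 h at each IFNγ dose; each point is the 1 deposited value of a group. Cd47 passes Sirpa at 20 U/ml (462 against 350 FPKM), Cd300lf passes Cd300a and Siglec1 passes Cd33 at 2 U/ml, and Siglece stays under 1.3 FPKM.

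The receptor group split in direction at 20 U/ml. Siglec1, Cd300lf and Cd47 were higher than in untreated cells and Cd33 was lower, while Sirpa, Pirb, Pilra and Cd300a stayed within the size rule. That is 3 of 8 higher, where 6.51% of the 11580 entries used were, and 1 of 8 lower, where 2.94% were. The members were listed with earlier results of these data known, so these shares describe them and test nothing. Their median log2 ratio was 0.42, beside 0.01 over all entries, and the median size of their ratios was 1.00, beside 0.28. Of all calls at 20 U/ml 68.9% were higher, and 57.1% with upper-quartile scaling of the columns. At 2 U/ml, 2 of 8 were higher (2.5% of all entries) and 0 were lower (0.76%). At 0.2 U/ml, 0 of 8 were higher (5.23%) and 0 were lower (0.328%). The values of untreated cells enter all 3 comparisons.

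**Figure D2:**
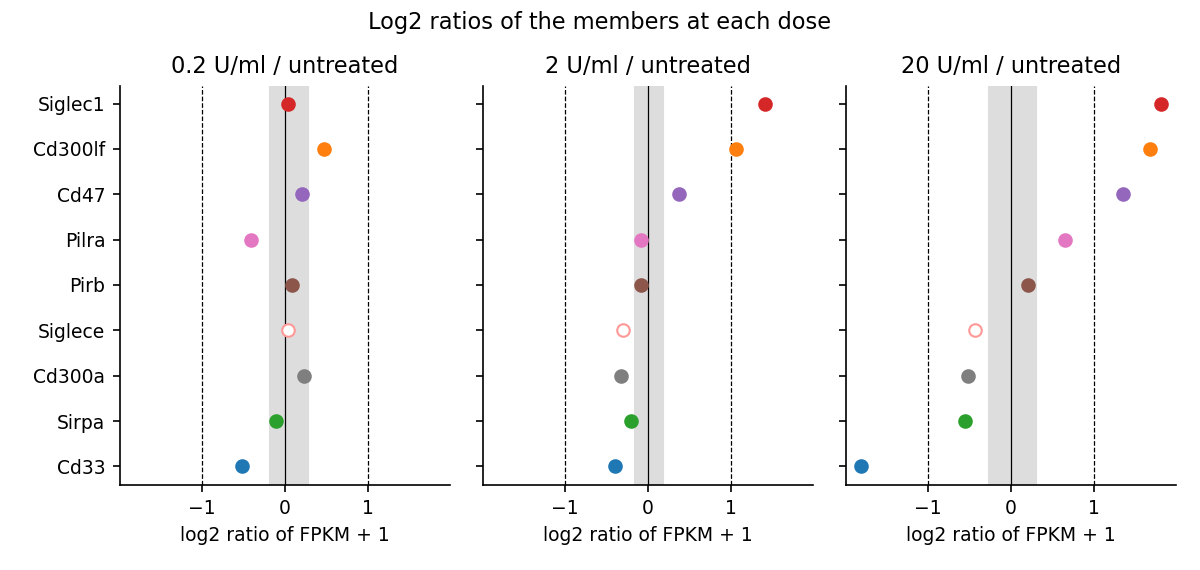
Log2 ratio of FPKM + 1 against untreated for each gene at 0.2, 2 and 20 U/ml; the grey band spans the interquartile range of the 11580 entries used, dashed lines mark the size rule of 1, and the open circle is Siglece, which was under the filter. At 0.2 U/ml every gene lies within 1, and at 20 U/ml the genes spread from -1.81 (Cd33) to 1.81 (Siglec1).

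Among the Siglecs, Siglec1 and Cd33 went opposite ways. Siglec1 (ENSMUSG00000027322.11, chromosome 2, 131069220 to 131086765 on GRCm38, minus strand, 21 exons in its longest transcript) stood at 9.65 FPKM without IFNγ, 9.93 with 0.2 U/ml, 27.3 with 2 U/ml and 36.3 with 20 U/ml. The lowest dose sat beside the untreated value, and most of the gain came between 0.2 and 2 U/ml. The log2 ratio to untreated was 0.04, 1.41 and 1.81 at the 3 doses, so 78.0% of the log2 ratio at 20 U/ml was already present at 2 U/ml. Its percentile of level among the entries used was 44.0 in untreated cells and 72.6 at 20 U/ml.

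Cd33 (ENSMUSG00000004609.11, chromosome 7, 43524216 to 43544428, minus strand) encodes a Siglec whose mouse form lacks the canonical ITIM of the human protein. It was at 16.7 FPKM untreated, 11.4 with 0.2 U/ml, 12.4 with 2 U/ml and 4.05 with 20 U/ml. Every treated value lay below the untreated one, and the largest step was the last, with a log2 ratio of -1.41 between 2 and 20 U/ml, a call that a pseudocount of 5 removed. Against untreated cells the log2 ratio was -0.52, -0.40 and -1.81, and the last of these ranked 56 from the bottom among the 11580 entries used. Without a pseudocount the level at 20 U/ml was 4.12 times lower than in untreated cells.

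Siglece (ENSMUSG00000030474.9, chromosome 7, 43651070 to 43660161, minus strand), the main ITIM-bearing Siglec described in mouse myeloid cells, was near the floor of the measurement. Its values were 1.21 FPKM untreated, 1.27 with 0.2 U/ml, 0.800 with 2 U/ml and 0.636 with 20 U/ml. The treated values at 2 and 20 U/ml were the lowest, with log2 ratios of -0.30 and -0.44, which at such levels were not called. Its percentile of level among the entries used was 4.53 in untreated cells.

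The 3 Siglec genes summed to 27.6, 22.6, 40.6 and 41.0 FPKM from untreated to 20 U/ml. Without IFNγ Cd33 made up 60.6% of that sum and Siglec1 35.01%, and at 20 U/ml they made up 9.88% and 88.6%. Per length, Siglec1 was thus below Cd33 in untreated cells and 8.96 times above it at the highest dose. Of 7 other Siglec symbols listed, 2 passed the filter and 0 of these passed the size rule at any dose. Mag (Siglec-4, known from myelin) was at 2.78 FPKM at 20 U/ml against 0.947 untreated, a log2 ratio of 0.96 that was 1.46, past the size rule, with a pseudocount of 0.1. Siglecf, a marker of eosinophils and alveolar macrophages, was at 1.52 against 2.08. Siglech, a marker of plasmacytoid dendritic cells, was under the filter and stood at 1.97 FPKM at 0.2 U/ml, against 0.101 to 0.258 in the other groups. Over all entries used 5.23% were higher at that dose and 0.328% lower. The symbol Siglec5 had no entry.

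**Figure D3:**
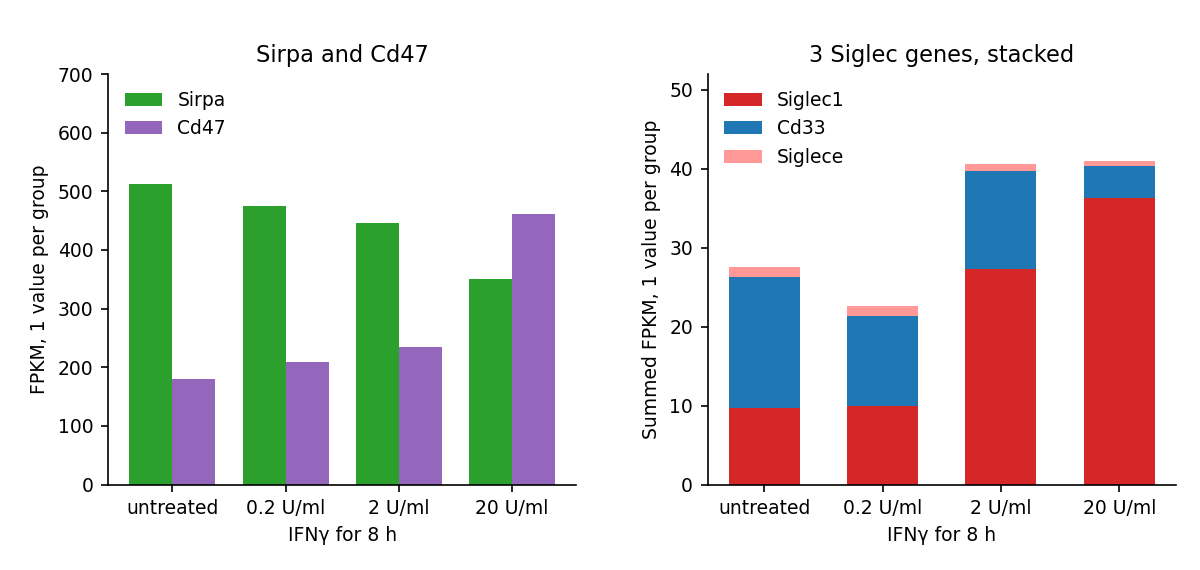
Left, FPKM of Sirpa and Cd47 by group; right, FPKM of Siglec1, Cd33 and Siglece stacked; each bar is the 1 deposited value of a group. Sirpa is at 513 FPKM untreated and 350 at 20 U/ml, Cd47 at 180 and 462, and Siglec1 takes 88.6% of the Siglec sum at 20 U/ml.

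The pair Sirpa and Cd47 changed order. Cd47 (ENSMUSG00000055447.19, chromosome 16, 49800533 to 49915010, plus strand) was at 180 FPKM untreated, 209 with 0.2 U/ml, 234 with 2 U/ml and 462 with 20 U/ml. Each value was above the one at the dose before, most between 2 and 20 U/ml, where the log2 ratio was 0.98, just under the size rule. Against untreated cells the log2 ratio at 20 U/ml was 1.35, of which 27.6% was present at 2 U/ml. The level at 20 U/ml was 2.56 times that of untreated cells.

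Sirpa (ENSMUSG00000037902.18, chromosome 2, 129592835 to 129632228, plus strand) was the most abundant member per length in untreated cells, at 513 FPKM. It was at 476 FPKM with 0.2 U/ml, 446 with 2 U/ml and 350 with 20 U/ml, lower at each dose than at the one before. Its log2 ratio of -0.55 at 20 U/ml did not pass the size rule. The level of Sirpa was 2.84 times that of Cd47 without IFNγ, 2.28 with 0.2 U/ml, 1.91 with 2 U/ml and 0.757 with 20 U/ml. This ratio is taken within a column, so a linear scaling of the columns does not alter it. Of the 8 members, 3 (Siglec1, Cd47 and Cd300lf) were higher at every step of dose, as 9.28% of the entries used were, and 1 (Sirpa) was lower at every step, as 6.54% were. Under quantile normalization the ratios at 0.2 U/ml were -0.02 for Siglec1, -0.05 for Cd47 and -0.43 for Sirpa, which ends the stepwise order of these 3.

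The SIRPβ genes, whose products share the SIRPα ectodomain type and pair with the activating adaptor DAP12, lay on chromosome 3 and were low. Sirpb1a was at 3.68 FPKM at 20 U/ml against 1.92 untreated, Sirpb1b at 2.17 against 1.12 and Sirpb1c at 1.48 against 1.012. The 3 log2 ratios, 0.68, 0.58 and 0.30, were above 0 while that of Sirpa was below, and 0 of the 4 passed the size rule. Their sequences are near-identical, so the division of reads between them is uncertain.

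Among the paired receptors Cd300lf stood out. Cd300lf (ENSMUSG00000047798.15, chromosome 11, 115116214 to 115133992, minus strand) encodes an ITIM-bearing receptor that binds lipids such as phosphatidylserine and serves as the entry receptor of murine norovirus. It was at 25.6 FPKM untreated, 35.9 with 0.2 U/ml, 54.5 with 2 U/ml and 84.0 with 20 U/ml. The value was higher at each of the 3 steps, and the log2 ratios to untreated were 0.47, 1.06 and 1.67. The ratio at 2 U/ml was 0.96 with a pseudocount of 5, under the size rule. At 2 U/ml 63.3% of the log2 ratio at 20 U/ml was present. The gene lies within Rab37 on the other strand, with which it shares 0 exon bases in the annotation, and Rab37 was at 0.548 to 1.17 FPKM.

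Cd300a (ENSMUSG00000034652.12, chromosome 11, 114890041 to 114904654, plus strand), an ITIM-bearing receptor for phosphatidylserine and phosphatidylethanolamine, had its lowest values at the higher doses. It was at 49.9 FPKM untreated, 58.8 with 0.2 U/ml, 39.6 with 2 U/ml and 34.5 with 20 U/ml. The log2 ratios of 0.23, -0.32 and -0.52 all lay within the size rule. Cd300a was at 1.94 times the level of Cd300lf in untreated cells and at 0.411 times that level at 20 U/ml.

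**Figure D4:**
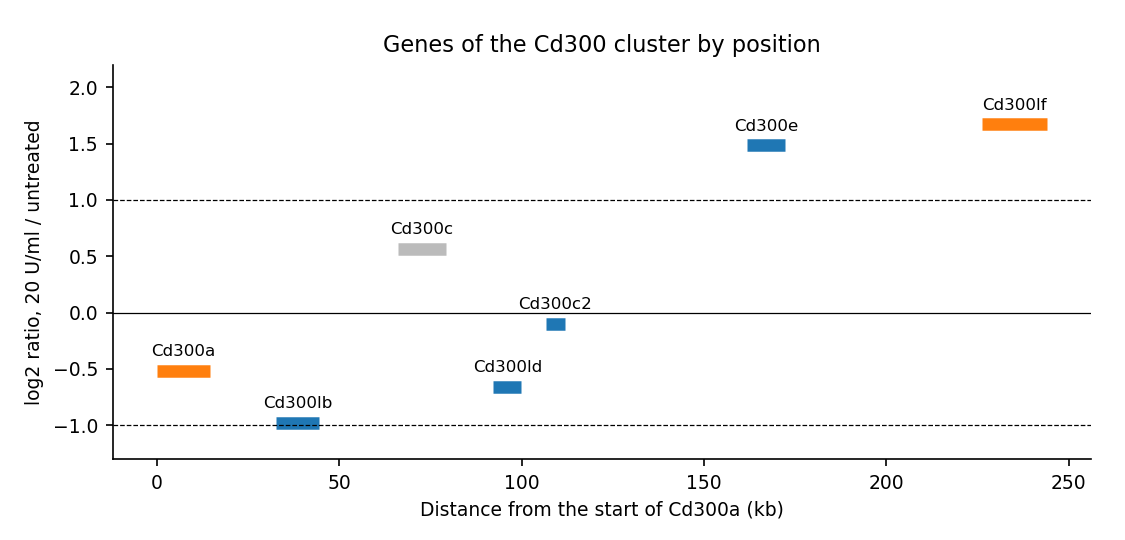
Log2 ratio of FPKM + 1 at 20 U/ml against untreated (vertical axis) for the 7 listed genes of the Cd300 cluster. They are drawn at their distance in kb from the start of Cd300a. Orange bars are members, blue bars other genes that passed the filter, grey is Cd300c, under the filter. Cd300e and Cd300lf, at the far end from Cd300a, lie above the dashed line at 1, and the other genes that passed lie below 0.

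Cd300a and Cd300lf are the outermost of 7 listed genes of the Cd300 cluster, which span 244 kb on chromosome 11. Any genes between them that were not listed were not examined. Of the 7 listed genes 6 passed the filter, with 2 higher at 20 U/ml by the size rule and 4 below 0 within it. Over all entries used 6.51% were higher and 2.94% lower. Cd300e, the listed gene nearest to Cd300lf, is described as an activating receptor of monocytes. It was at 9.71 FPKM at 20 U/ml against 2.82 (log2 ratio 1.49, and 0.91 with a pseudocount of 5). Cd300lb, which signals through DAP12 and is the listed gene nearest to Cd300a, was at 26.7 against 53.6 FPKM (-0.98, and -1.12 with upper-quartile scaling). Cd300ld was at 3.71 against 6.45 (-0.66). Cd300c2 was at 13.6 against 14.6 FPKM. Cd300lg, a relative on the same chromosome outside the cluster, was at 2.76 against 4.37 FPKM.

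Pirb (ENSMUSG00000058818.13, chromosome 7, 3711409 to 3720391, minus strand), the inhibitory receptor for MHC class I, differed least. It was at 120 FPKM untreated, 127 with 0.2 U/ml, 113 with 2 U/ml and 138 with 20 U/ml. The treated values lay on both sides of the untreated one, and the largest log2 ratio was 0.20, within the interquartile range of all entries (-0.27 to 0.30 at 20 U/ml). Its activating relatives stayed within the size rule too: Lilra6 was at 21.7 against 24.5 FPKM at 20 U/ml and Pira2 at 2.02 against 1.86. These genes are near-identical copies in part, and 8 further Pira symbols had no entry, so their reads cannot be assigned with certainty.

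Pilra (ENSMUSG00000046245.13, chromosome 5, 137821952 to 137836281, minus strand) encodes an ITIM-bearing receptor for sialylated O-glycoproteins. It was at 19.1 FPKM untreated, 14.1 with 0.2 U/ml, 17.9 with 2 U/ml and 30.5 with 20 U/ml. The values at the lower doses lay below the untreated one and the highest dose above it, and the log2 ratios were -0.41, -0.09 and 0.65. The activating partners in the same 49.9 kb also lay above untreated at 20 U/ml: Pilrb1 was at 10.4 against 4.61 FPKM (log2 ratio 1.03, and under the size rule with upper-quartile scaling) and Pilrb2 at 8.29 against 5.21 (0.58). The 3 are close copies. In addition 15.1% of the exon bases of Pilra are shared with Zcwpw1 on the other strand, and no source used here tells whether counting used strand. Zcwpw1 was at 2.97 FPKM at 20 U/ml against 4.57.

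Between doses, the members differed in where the step lay. From 0.2 to 2 U/ml, 1 of 8 was higher, Siglec1 (log2 ratio 1.37), where 1.51% of all entries were, and 0 were lower (6.26%). From 2 to 20 U/ml, 0 of 8 were higher (2.9%) and 1 was lower, Cd33 (1.11%). Cd47 and Pilra followed in size at that step with 0.98 and 0.74. Cd300lf had nearly equal steps of 0.59 and 0.61.

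Downstream of the receptors, the kinases and phosphatases that ITIMs use were compared from lists chosen with earlier results of these data known. At 20 U/ml 1 of 8 ITIM effectors was higher and 0 were lower (median log2 ratio 0.47), where 6.51% and 2.94% of all entries were. That gene was Ptpn6, which encodes SHP-1, at 307 FPKM untreated, 290 with 0.2 U/ml, 401 with 2 U/ml and 719 with 20 U/ml (log2 ratio 1.23). Ptpn11, which encodes SHP-2, was at 11.4 against 11.2 FPKM and Inpp5d, which encodes SHIP-1, at 70.0 against 60.1. The adaptor genes Dok2 (0.92) and Dok1 (0.63) came next in size. Of 7 Src and Syk pathway kinases and targets 1 was higher at 20 U/ml and 0 were lower (median 0.46). It was the Src family kinase Lyn, at 130 against 49.4 FPKM (1.37). The kinase Src itself was at 3.23 against 1.75 FPKM (0.62), and the phospholipase gene Plcg2 at 40.1 against 27.2 (0.54). Syk, the kinase of activating receptors, was at 34.1 against 41.2.

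The activating adaptors stayed within the size rule against untreated cells. Tyrobp (DAP12) was at 2311 FPKM untreated and 1910 at 20 U/ml, Fcer1g at 1270 and 1411. Hcst (DAP10) was at 98.3 FPKM untreated, 154 with 0.2 U/ml, 70.3 with 2 U/ml and 65.3 with 20 U/ml. From 0.2 to 2 U/ml it was lower by the size rule (-1.12), as were 6.26% of all entries.

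Other inhibitory receptors of the macrophage surface were called in both directions. Of 13 that passed the filter 4 were higher and 1 lower at 20 U/ml, with a median of 0.18, beside 6.51% and 2.94% of all entries and their median of 0.01. The higher ones were Klra2, a Ly49 family receptor, at 14.7 against 1.84 FPKM (2.46), Lair1, a collagen receptor, at 219 against 71.5 (1.60), Cd72 at 604 against 200 (1.59) and the lectin receptor Clec12a at 445 against 210 (1.08, and 0.94 with upper-quartile scaling). The lower one was Fcgr2b, the inhibitory Fc receptor, at 29.9 FPKM against 70.6 (-1.21). At 2 U/ml Klra2 (2.03) and Lair1 (1.008, and 0.94 with upper-quartile scaling) were already higher. Against untreated cells Pecam1 passed the size rule at 0.2 U/ml but not at 2 or 20 U/ml, at 3.41 against 0.691 FPKM. Its log2 ratio at 0.2 U/ml was 1.38, and 0.56 with a pseudocount of 5. At that dose 5.23% of all entries were higher. The merged entry of Lilrb4a and Lilr4b was counted among these 13 and again among the related receptors. Among 17 related receptors of the Pir, Lilr, Pilr, Cd300, Sirp and Trem families that passed the filter, 3 were higher at 20 U/ml and 0 lower (median 0.08): Treml2 at 8.16 against 0.760 FPKM (2.38), Cd300e and Pilrb1. Treml2 was also higher at 2 U/ml (1.008, and 0.39 with a pseudocount of 5).

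**Figure D5:**
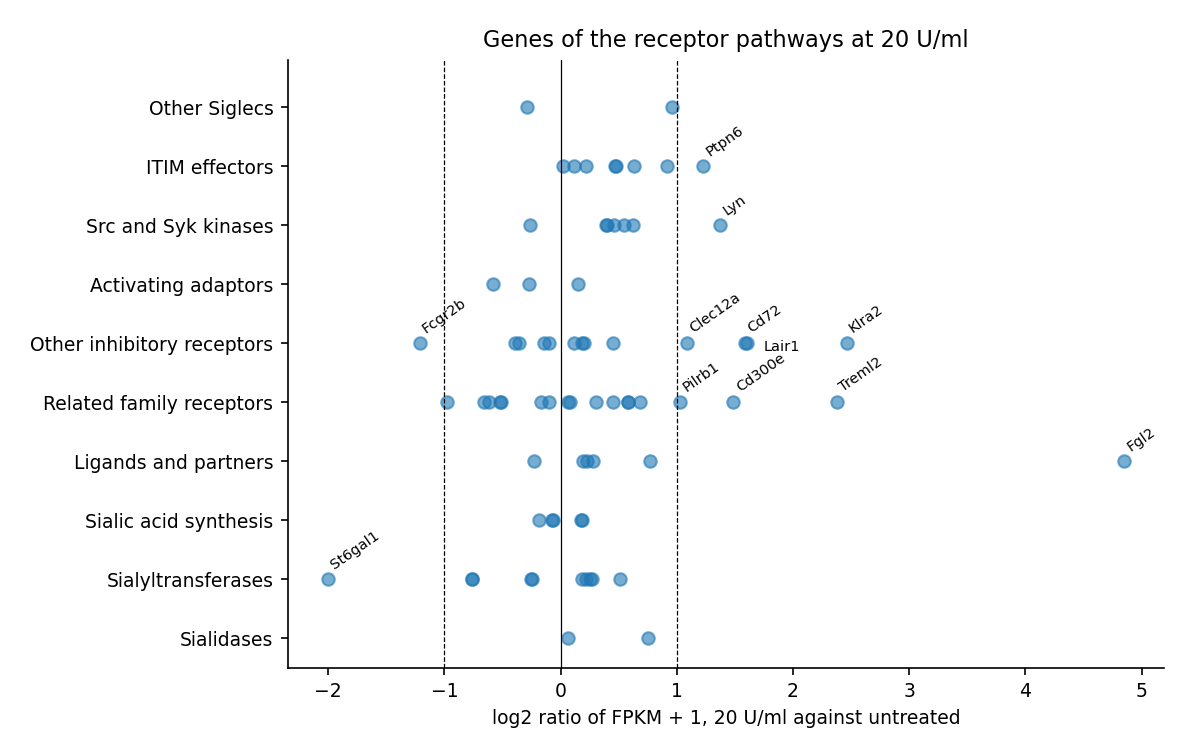
Log2 ratio of FPKM + 1 at 20 U/ml against untreated for each entry that passed the filter in 10 lists of related genes; dashed lines mark the size rule of 1 and entries past it are named. Most entries lie within the lines; Fgl2 is farthest to the right (4.85) and St6gal1 farthest to the left (-2.003).

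Genes for ligands and their sialic acid were listed last. Of 6 ligand and partner entries 1 was higher at 20 U/ml and 0 lower, where 6.51% and 2.94% of all entries were. It was Fgl2, a secreted protein that binds the inhibitory Fc receptor FcγRIIB, at 4.81 FPKM untreated, 10.0 with 0.2 U/ml, 55.7 with 2 U/ml and 167 with 20 U/ml (log2 ratio 4.85). Ptk2b was at 120 against 69.7 FPKM (0.77). The merged entry that holds Fyb was at 125 FPKM untreated, 249.975 with 0.2 U/ml, 124.7 with 2 U/ml and 152 with 20 U/ml. Its highest value lay at 0.2 U/ml, with a log2 ratio to untreated just under the size rule (0.996), and the ratio at 20 U/ml was 0.28. Over all entries used 5.23% were higher at 0.2 U/ml and 0.328% lower, and 6.26% were lower from 0.2 to 2 U/ml. Qpctl, the enzyme that modifies the end of CD47 at which SIRPα binds, was at 7.07 against 6.07 FPKM, and Pianp, a ligand of PILRα, at 35.1 against 41.3.

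The 5 entries of sialic acid synthesis had log2 ratios between -0.19 and 0.18 at 20 U/ml, with Nans (-0.19), Cmas (0.18) and the merged entry of Nanp (0.18) largest in size. Cmah, which converts sialic acid to the glycolyl form, was under the filter at 0.227 FPKM against 0.632. Of 10 sialyltransferase entries that passed, 1 of them shared by St6galnac4 and St6galnac6, 1 was lower at 20 U/ml and 0 higher. Over all entries used 2.94% were lower and 6.51% higher. St6gal1, which adds sialic acid in the α2,6 linkage, was at 96.98 FPKM untreated, 101 with 0.2 U/ml, 58.7 with 2 U/ml and 23.4 with 20 U/ml. The values at 2 and 20 U/ml were the lowest, and the log2 ratio at 20 U/ml was -2.003. Of the enzymes for the α2,3 linkage, which Siglec1 prefers, St3gal1 (-0.76), St3gal3 (-0.76) and St3gal2 (-0.25) were below untreated. St3gal5, which makes the ganglioside GM3, was at 84.8 against 59.3 FPKM (0.51). St3gal6 (0.27) and St3gal4 (0.19) were above untreated as well. All of these ratios lay within the size rule. The sialidases Neu1 and Neu3 were at 45.1 against 43.2 and 1.89 against 0.715 FPKM.

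The entries whose ratios over the 3 doses were most like each member's were sought among 7855 single-gene entries with a mean of at least 5 FPKM, by Euclidean distance over the 3 log2 ratios. Nearest to Siglec1 was Entpd1 (distance 0.20), at 26.4, 29.4, 64.2 and 91.7 FPKM, followed by Fbxw17 and Gnb4 (0.30 and 0.32). Only 1 entry lay within 0.25 of Siglec1 and 3 within 0.25 of Cd33, while 344 did for Sirpa and 646 for Pirb. Such counts depend on the size of a member's ratios, since most entries lie near 0. Nearest to Cd33 were Stap1 (0.09), at 42.4 FPKM untreated and 11.5 at 20 U/ml, the iron exporter gene Slc40a1 (0.23) and Gm22043 (0.23). Nearest to Cd47 were Arl4a (0.07), Ankrd9 (0.11) and Cycs (0.12), with 28 entries within 0.25. Nearest to Cd300lf were Dusp28 (0.07), the inflammasome protease gene Casp1 (0.09) and Il4ra (0.15), with 12 within 0.25. For the members within the size rule the nearest were Hmha1, Arhgef40 and H2afz (Sirpa), Nxt1, Nfyc and RP24-560O24.2 (Pirb), Eif2s1, 2310031A07Rik and Csf3r (Pilra), and Timp2, Selenbp1 and Etv1 (Cd300a). Each distance rests on 4 group values that share the untreated column.

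A second deposited table compares conditions named untreated and treated with no dose given. All 9 genes are marked significant in the authors' deposited table, as are 68.9% of the entries it tested. Its log2 fold changes were 3.16 for Cd300lf, 1.65 for Cd300a, 1.39 for Cd33, 1.01 for Pirb and 0.36 for Cd47 in the authors' deposited table. In the same deposited table of the authors they were -1.14 for Siglece, -1.37 for Siglec1, -1.60 for Sirpa and -2.01 for Pilra. In the FPKM table the log2 ratios of these genes at 20 U/ml, in the same order, were 1.67, -0.52, -1.81, 0.20 and 1.35, then -0.44, 1.81, -0.55 and 0.65. The sign thus differed for Cd300a, Cd33, Siglec1 and Pilra and was the same for 5 of the 9. Over the 10793 entries used here and tested by the authors, it was the same for 53.7%. The comparisons may share untreated samples, so these shares are descriptions only. The authors' deposited table gives a q-value of 0.0127 for Cd47 and 9.95e-05 for each of the others. Those others were at the smallest p-value of that table, which 6460 of the 12854 entries it tested share. No source used here names the cells or the dose of its treated condition.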

How the data were processed

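RNA was measured in 12 libraries in 4 groups. The submitters' processing notes name mouse build mm10 and, in no stated order, Cuffdiff 2.1.1, Cufflinks 2.1.1 and TopHat2 2.1.1. Per the file headers, the main table gives FPKM, a single value for each group; the untreated column names no unit and was read as FPKM from its range. The second table, deposited by the authors, gives a log2 fold change, a test score, and a p-value and q-value per entry. The 2 value columns in it name no dose group and were left unused.

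Ratios of log2(FPKM + 1) were computed in Python 3.11.15 with numpy 2.4.6 and pandas 2.3.3. Of 46729 entries, 11852 had a mean of at least 1 FPKM, and 272 of these were left out for a 0 in a group, since a 0 can be a failed estimate. The planned limma test needs values per library and could not be made, so the size rule was used. The calling of ratios was run on simulated data with an assumed noise and large changes planted only in well-expressed entries. That checks the code and gives no error rate for the calls made here. The members and gene lists were chosen with earlier results of these data known. Named genes are all members, list genes past the size rule at any dose or among the 3 largest at 20 U/ml, and the 3 entries nearest to each member. Further list genes were named for their known role after their values were seen. From the lists 1 gene was removed and is not reported here. A planned search for motifs in the members' proteins was not made. Positions and exons come from GENCODE M21 on GRCm38, promoters from RefSeq on GRCm38.p6. Sums of FPKM over all entries were 769698, 1025970, 783701 and 904993 from untreated to 20 U/ml.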

Additional observations from a re-analysis of the deposited data

How the results depend on the processing

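Each ratio was recomputed with pseudocounts of 0.1 and 5, no filter, a filter at 5 FPKM, entries with a 0 included, upper-quartile scaling, quantile normalization, median centring and a size rule of 1.5-fold. The calls of Siglec1, Cd300lf, Cd47 and Cd33 at 20 U/ml held under all of these, with ranges of 1.495 to 1.90, 1.53 to 1.71, 1.21 to 1.36 and -2.02 to -1.26. The count of members past the size rule at 2 U/ml was 1 in place of 2 with a pseudocount of 5 and with upper-quartile scaling, where Cd300lf was at 0.96 and 1.00 (0.9965). Under those settings 1.49% and 2.31% of all entries were higher at 2 U/ml, and 0.259% and 0.915% lower. From 0.2 to 2 U/ml the count was 2 in place of 1 at 1.5-fold (all entries: 5.77% higher, 13.2% lower). From 2 to 20 U/ml it was 0 in place of 1 with a pseudocount of 5 (1.8% higher, 0.432% lower). For that step it was 4 at 1.5-fold (7.69% higher, 4.94% lower). At 20 U/ml against untreated it was 5 in place of 4 at 1.5-fold, with Pilra added (12.6% higher, 9.6% lower). At 0.2 U/ml the signs of Siglec1, Cd47 and Pirb changed under quantile normalization (-0.02, -0.05 and -0.14), and those of Siglec1 and Pirb under upper-quartile scaling, so the order of those members at the lowest dose is not settled. Upper-quartile scaling moved the median ratio of all entries at 20 U/ml by -0.13 and the share of called entries that were higher from 68.9% to 57.1%. Among list genes at 20 U/ml, the calls of Pilrb1, Clec12a and Cd300e were lost under at least 1 setting (down to 0.68, 0.94 and 0.91), and Cd300lb was called lower with a pseudocount of 0.1, upper-quartile scaling and quantile normalization (at least 1 in size; -1.12 and -1.14 under the scalings). Mag and Neu3 were called higher with a pseudocount of 0.1 (1.46 and 1.29). At 2 U/ml the calls of Lair1 and Treml2 were lost with median centring, just under 1. The cause of these changes was not tested. No paired analysis was possible because the table holds 1 value per group; leaving out replicates was not possible for the same reason, and depth is unknown.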
